A study of Mus musculus with 4 samples.

Results

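The genes described here are 10 genes of bone morphogenetic protein (BMP) signalling in the regenerating mouse digit tip: the ligand genes Bmp2, Bmp4, Bmp5 and Bmp7, the secreted BMP inhibitor gene Grem1, the homeobox genes Msx1 and Msx2, and the Id genes Id1, Id2 and Id3. They were chosen by gene symbol, and each of the 10 was found once among the 45706 genes of the count table. RNA came from whole regenerating digit tips at 14 days post amputation. The 4 genotypes had 1 library each: wildtype, a conditional knockout (cKO) of Sp6, a cKO of Sp8, and the Sp6+Sp8 cKO, called the double cKO here. Both genes encode zinc-finger transcription factors that are active in epidermis. Deletion was induced with tamoxifen at 75 mg/kg, injected on each of 5 days and followed by 5 days without treatment before surgery. In the labels the cKO libraries are of batch 1 and wildtype is of batch 3, so batch and deletion cannot be told apart in a comparison with wildtype. The cKO libraries can be compared within batch 1, although they also differed from each other in sex-linked genes, Sp8 cKO the most, as given below. The sources used here do not give the Cre driver, strain, age, sex, amputation level, tamoxifen treatment of wildtype mice, or how many animals or digits made up a library. With 1 library per group no difference was tested, and every interval below covers counting error only, not variation between animals.

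BMPs are secreted dimers that bind type I and type II receptor kinases and lead to phosphorylation of Smad1, Smad5 and Smad9, which enter the nucleus with Smad4. Id genes are among their most direct transcriptional targets, and Id proteins hold E proteins away from DNA. Msx1 and Msx2 encode homeodomain repressors that are both targets of BMP signalling and regulators of Bmp genes, and they mark the nail bed and distal mesenchyme of the digit tip. In mice, digit tip regrowth is known to need Msx1 and BMP signalling, and added BMP can induce regrowth at levels of the digit that do not otherwise regenerate.

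The libraries held between 12588511 and 21834883 rounded estimated counts, with wildtype the deepest. Levels are given as CPM, a gene's counts relative to the library total, after scaling by the trimmed mean of M-values (TMM). Sp6 stood at 97.7 CPM in wildtype, 29.2 CPM in Sp6 cKO, 95.6 CPM in Sp8 cKO and 57.8 CPM in the double cKO. Sp8 stood at 63.9, 66.1, 16.8 and 13.4 CPM in the same order. Sp6 was thus lower in the Sp6 cKO than in the library labelled Sp6+Sp8 cKO, and these whole-gene counts do not show whether a deleted exon is missing. Markers of basal and suprabasal keratinocytes, nail, fibroblasts, osteoblasts, endothelium and nerve were present in all 4 libraries, while 4 skeletal muscle markers summed to at most 9 counts in a library. Xist, the RNA of the inactive X chromosome, was at 27.9 CPM in Sp8 cKO and between 1526 and 3528 CPM in the other libraries, and the Y-linked gene Kdm5d was at 65.3 CPM there and between 32.0 and 43.2 CPM in the others.

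On GRCm38, with GENCODE M21 annotation, Bmp2 (ENSMUSG00000027358) lies at chr2:133552159-133562885, Bmp7 (ENSMUSG00000008999) at chr2:172868012-172940321, Grem1 (ENSMUSG00000074934) at chr2:113746164-113758646 and Id1 (ENSMUSG00000042745) at chr2:152736251-152737410. Bmp4 (ENSMUSG00000021835) lies at chr14:46383520-46390669, Bmp5 (ENSMUSG00000032179) at chr9:75775364-75900310, Msx1 (ENSMUSG00000048450) at chr5:37820485-37824583, Msx2 (ENSMUSG00000021469) at chr13:53466884-53473074, Id2 (ENSMUSG00000020644) at chr12:25093799-25097140 and Id3 (ENSMUSG00000007872) at chr4:136143497-136145755.

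Promoter sequences are shown because the deleted factors belong to the Sp family, whose members bind GC boxes, and because BMP-activated Smads can bind a GC-rich site. Entries were found for 7 of the 10 genes in RefSeq on GRCm38.p6, and the 250 bases before the start were searched on both strands for the GC box GGGCGG and the GC-rich Smad letters GGCGCC. A GC box was present in 6 of the 7, all but Bmp5, against 33.0% of 32536 promoter windows of the same length. GGCGCC was present in 2 of the 7, Grem1 and Id2, against 9.65% of all windows. The short Smad box GTCT was present in 6 of the 7 and in 82.9% of all windows. By GENCODE M21 the windows of Msx2 and Id3 lay wholly within exons of their own gene. So did 161 of the 250 bases for Id2 and 1 base for Bmp5. The counts of 6 and 2 therefore include windows that are not wholly upstream of the annotated gene, and all windows were taken without regard to exons. The 3 windows free of annotated exons are printed 5′ to 3′ along the gene's strand, with both motifs in capitals. Bmp4 is the ligand furthest below wildtype in the double cKO library, Grem1 the gene with the widest range and Msx1 a gene with a narrow one. The Bmp4 window is chr14:46390670-46390919 on the minus strand, the Grem1 window chr2:113758649-113758898 on the minus strand, and the Msx1 window chr5:37824586-37824835 on the minus strand.
Bmp4: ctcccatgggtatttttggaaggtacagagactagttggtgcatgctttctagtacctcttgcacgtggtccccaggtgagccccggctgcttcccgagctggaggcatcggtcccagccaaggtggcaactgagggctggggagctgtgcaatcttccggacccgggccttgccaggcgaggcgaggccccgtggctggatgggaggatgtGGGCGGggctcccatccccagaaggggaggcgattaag
Grem1: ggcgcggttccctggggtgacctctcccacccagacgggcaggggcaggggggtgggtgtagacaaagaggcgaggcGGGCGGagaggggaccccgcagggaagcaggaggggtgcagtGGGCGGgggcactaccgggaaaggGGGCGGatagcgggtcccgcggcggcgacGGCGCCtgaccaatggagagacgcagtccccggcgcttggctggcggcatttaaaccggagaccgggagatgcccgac
Msx1: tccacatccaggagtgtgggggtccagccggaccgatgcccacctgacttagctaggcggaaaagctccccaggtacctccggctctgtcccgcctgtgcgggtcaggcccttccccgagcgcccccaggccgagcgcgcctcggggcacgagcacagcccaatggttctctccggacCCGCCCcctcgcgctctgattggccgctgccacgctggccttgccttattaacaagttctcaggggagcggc
Bmp4 and Msx1 each held 1 GC box (in Msx1 as its reverse complement CCGCCC), and Grem1 held 3 GC boxes and 1 GGCGCC. These matches describe the letters of the windows and say nothing of binding.

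Per kilobase of exon, the Id genes and Bmp7 were the most abundant of the 10 and Grem1 the least. Averaged over the 4 libraries, Id1 stood at 24.7 CPM per kb, Id2 at 17.6, Bmp7 at 17.5 and Id3 at 13.0. Bmp4 followed at 7.80 CPM per kb, then Msx2 at 7.19, Bmp2 at 6.10, Bmp5 at 5.13 and Msx1 at 4.54, and Grem1 came last at 1.32. Bmp7 was therefore the leading BMP ligand transcript of the 4 measured as members, in each library. With the longest transcript in place of merged exons, Msx2 stood above Bmp4 and Msx1 above Bmp2.

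All 10 genes were measured in every library, and none differed 2-fold in any of the 6 pairwise comparisons. A gene was past the size rule when its log2 ratio was at least 1 in either direction, its CPM reached 1 in at least 1 of the 2 libraries and the exact 95% interval of the ratio left out 1. Over all genes, 4.4% passed this rule in Sp6 cKO against wildtype, 3.82% in Sp8 cKO and 5.79% in the double cKO. Within batch 1 the shares were 3.1% for Sp8 cKO against Sp6 cKO, 3.97% for the double cKO against Sp6 cKO and 4.68% for the double cKO against Sp8 cKO. Beside shares this small, nothing particular to the 10 genes is read from the count of 0.

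At a smaller size of 0.5 on the log2 scale, Grem1 was the single gene of the 10 to pass, and in each case through the Sp8 cKO library. It passed in Sp8 cKO against wildtype, where 9.69% of all genes did, in Sp8 cKO against Sp6 cKO (7.15% of all genes) and in the double cKO against Sp8 cKO (13.6%). No member passed in Sp6 cKO against wildtype (10.7% of all genes), in the double cKO against wildtype (16.9%) or in the double cKO against Sp6 cKO (11.8%). The median log2 ratio of the 10 genes against wildtype was -0.08 in the Sp6 cKO, -0.10 in the Sp8 cKO and -0.11 in the double cKO, where the medians of all genes were -0.01, -0.01 and -0.02. These comparisons share the wildtype library.

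**Figure D1:**
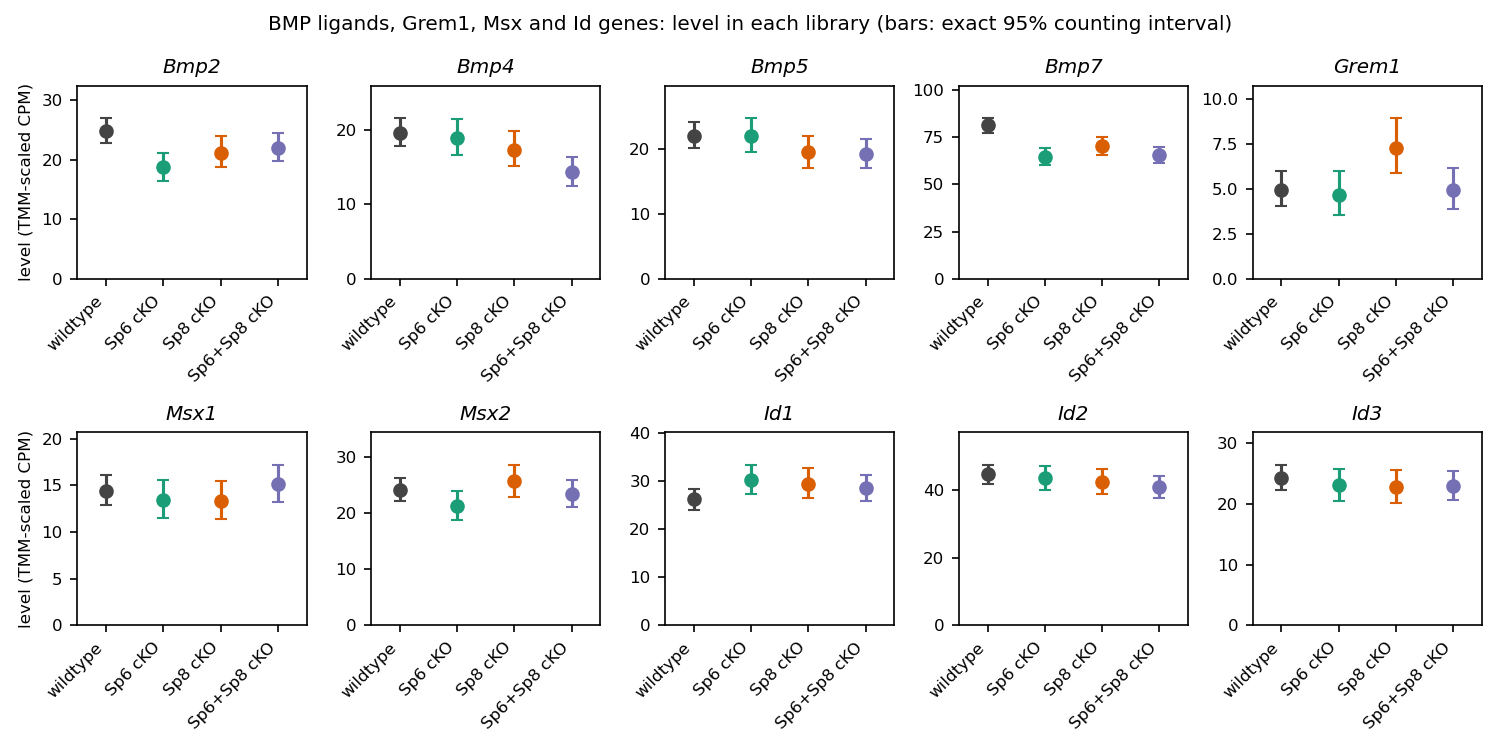
Level of each of the 10 genes in each library, in TMM-scaled CPM on axes that start at 0, with bars for the exact 95% counting interval. Bmp7 is highest in wildtype at 81.2 CPM, Bmp4 is lowest in Sp6+Sp8 cKO at 14.3 CPM, Grem1 is highest in Sp8 cKO at 7.30 CPM, and the Id genes lie close together across libraries.

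Among the ligands, Bmp7 and Bmp2 were lower in the cKO libraries than in wildtype by less than 1.5-fold, and Bmp4 was lowest in the double cKO library. Bmp7, a ligand related to Bmp5 that is made in epidermis and mesenchyme of limbs, stood at 81.2 CPM in wildtype (1766 counts), 64.7 in the Sp6 cKO (834 counts), 70.2 in the Sp8 cKO (884 counts) and 65.6 in the double cKO (1009 counts). All 3 cKO values lay below wildtype, and their intervals did not overlap that of wildtype. The log2 ratio to wildtype was -0.33 in the Sp6 cKO (95% interval -0.45 to -0.21), -0.21 in the Sp8 cKO (-0.33 to -0.09) and -0.31 in the double cKO (-0.42 to -0.20). Within batch 1 the Bmp7 libraries were at most 1.09-fold apart, for Sp8 cKO over Sp6 cKO (95% interval 0.986 to 1.19), so the gap in Bmp7 lay between the wildtype library of batch 3 and the batch 1 libraries.

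Bmp2, which in mice initiates fracture healing and is needed in limb mesenchyme for bone repair, stood at 24.8 CPM in wildtype, 18.7 CPM in Sp6 cKO, 21.2 CPM in Sp8 cKO and 22.0 CPM in the double cKO. Sp6 cKO was the lowest, 1.33-fold below wildtype (log2 ratio -0.41, 95% interval -0.63 to -0.19). Sp8 cKO was at -0.22 (-0.44 to -0.01) and the double cKO at -0.17, with an interval of -0.37 to 0.03 that held 0. No neighbours in the order of the 4 Bmp2 levels differed beyond counting error.

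Bmp4, a close relative of Bmp2 and the ligand most often tied to Msx1 in the digit tip, stood at 19.6 CPM in wildtype, 18.9 CPM in Sp6 cKO, 17.3 CPM in Sp8 cKO and 14.3 CPM in the double cKO. The double cKO library was 1.37-fold below wildtype (log2 ratio -0.45, 95% interval -0.70 to -0.22). It was also below Sp6 cKO within batch 1, at a log2 ratio of -0.40 (-0.67 to -0.14), and at -0.27 against Sp8 cKO (-0.55 to 0.00). Several cell type lists had lower medians in the same library against wildtype: -0.16 for 6 fibroblast genes, -0.31 for 7 endothelial genes, -0.43 for 7 osteoblast genes, -0.66 for 5 suprabasal keratinocyte genes and -0.96 for 5 nail and hair keratin genes. The osteoblast sum went the other way from its median, at 358 CPM against 320 CPM in wildtype, and the median of 7 osteoclast genes was 1.77. The summed fibroblast level was 3052 CPM in that library and between 3706 and 3935 CPM in the other 3, and no fibroblast marker was at 0. The part of these differences in the Bmp4 value was not tested, and in whole tissue fewer cells of a type and less RNA per cell cannot be told apart.

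Bmp5, a ligand best known from the short ear mutation of mouse cartilage, was at 22.0 CPM in wildtype, 22.0 CPM in Sp6 cKO, 19.4 CPM in Sp8 cKO and 19.2 CPM in the double cKO. Its highest and lowest libraries did not differ beyond counting error, at 1.15-fold (95% interval 0.992 to 1.33). Its counts were not whole numbers in any library, and 46.7% of its exon length overlaps the antisense gene Gm26903. Whether reads were counted by strand is not given, so the Bmp5 values are uncertain. The 4 ligands together summed to 147.6 CPM in wildtype, 124.3 CPM in Sp6 cKO, 128.1 CPM in Sp8 cKO and 121.1 CPM in the double cKO, with Bmp7 as the largest part of each sum in CPM.

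Grem1, which encodes the BMP2, BMP4 and BMP7 antagonist gremlin, was higher in the Sp8 cKO library than in the other 3. It stood at 4.97 CPM in wildtype (108 counts), 4.65 in the Sp6 cKO (60 counts), 7.30 in the Sp8 cKO (92 counts) and 4.94 in the double cKO (76 counts). Sp8 cKO exceeded wildtype 1.47-fold (95% interval 1.10 to 1.96) and, within batch 1, Sp6 cKO 1.57-fold (1.12 to 2.21). The double cKO, in which Sp8 was at least as low, was 1.48-fold below Sp8 cKO, a log2 ratio of -0.55 (-1.02 to -0.11), and level with wildtype at -0.01 (-0.45 to 0.43). The other 3 libraries did not differ beyond counting error, and Grem1 had the fewest counts and the widest intervals of the 10.

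The same Sp8 cKO library stood apart in other ways, given here as values beside the Grem1 result. Its 5 erythroid genes summed to 687 CPM against 262 to 349 CPM in the others and its mural cell genes to 673 CPM against 579 to 606. Its osteoclast genes summed to 346 CPM, near the 341 CPM of the double cKO library, and it was the library with low Xist. Its fibroblast sum of 3721 CPM lay within the range of the other libraries. The part of these differences in the Grem1 value was not tested. Of 9627 other protein-coding genes with a mean of at least 10 CPM, the genes whose log2 level over the 4 libraries, each centred on its mean, lay nearest to that of Grem1 were Parp10, Nenf and Galnt11, at root mean square differences of 0.02, 0.05 and 0.06. With 4 libraries this likeness is a description.

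Msx1 and Msx2 differed little between genotypes. Msx1 was at 14.4 CPM in wildtype, 13.4 CPM in Sp6 cKO, 13.3 CPM in Sp8 cKO and 15.1 CPM in the double cKO, and the highest and lowest of these were 1.14-fold apart, with an interval of 0.927 to 1.39. All 4 Msx1 levels therefore overlapped within counting error. Msx2, which is expressed in nail and hair matrix as well as in distal mesenchyme, was at 24.1 CPM in wildtype, 21.2 CPM in Sp6 cKO, 25.6 CPM in Sp8 cKO and 23.4 CPM in the double cKO. Only the extremes differed beyond counting error, with Sp8 cKO 1.21-fold above Sp6 cKO (95% interval 1.02 to 1.42). In the double cKO, where nail and hair keratins summed to 1907 CPM against 3855 in wildtype, the log2 ratio of Msx2 to wildtype was -0.04, with an interval of -0.24 to 0.16. Across the cKO libraries the intervals of the ratio to wildtype ran from 0.763 to 1.25 in Msx1 and from 0.760 to 1.23 in Msx2.

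The Id genes, the nearest readout of BMP-activated Smads among the 10, included the genes with the narrowest ranges, Id3 and Id2. Id3 was at 24.3 CPM in wildtype, 23.0 CPM in Sp6 cKO, 22.7 CPM in Sp8 cKO and 22.9 CPM in the double cKO, a range of 1.07-fold. Id2, which has many regulators besides BMP, ranged 1.09-fold, from 44.6 CPM in wildtype through 43.4 in the Sp6 cKO and 42.5 in the Sp8 cKO to 40.8 in the double cKO. Neither gene differed between any pair of libraries beyond counting error.

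Id1 was the one Id gene higher in the cKO libraries, at 30.2 CPM in the Sp6 cKO, 29.5 in the Sp8 cKO and 28.5 in the double cKO against 26.2 in wildtype. The Sp6 cKO value was 1.16-fold above wildtype (95% interval 1.01 to 1.32), and the intervals of the other 2 held 1, at 0.985 to 1.28 and 0.960 to 1.24. Within batch 1 the 3 Id1 levels did not differ beyond counting error. Summed, the Id genes stood at 95.1 CPM in wildtype and at 96.7, 94.6 and 92.2 CPM in the Sp6, Sp8 and double cKO, while the ligand sum was lower in these libraries.

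Over the 10 genes, intervals that left out 1 at any size were found for 3 in Sp6 cKO against wildtype (Bmp2, Bmp7 and Id1), where 31.8% of all genes had such an interval. There were 3 in Sp8 cKO against wildtype (Bmp2, Bmp7 and Grem1; 29.7% of all genes) and 2 in the double cKO against wildtype (Bmp4 and Bmp7; 46.0%). Within batch 1 there were 2 in Sp8 cKO against Sp6 cKO (Grem1 and Msx2; 21.4%), 1 in the double cKO against Sp6 cKO (Bmp4; 36.2%) and 1 in the double cKO against Sp8 cKO (Grem1; 38.9%). The shares of members were near or below those of all genes. The median size of the log2 difference, without its sign, was 0.13 over the 10 genes in the double cKO against wildtype and 0.22 over all genes tested. It was 0.10 against 0.16 in Sp6 cKO and 0.17 against 0.16 in Sp8 cKO. The genes tested reached down to a CPM of 1, below the lowest member level of 4.65 CPM, and low counts vary more. Genes were not matched by level, so the smaller sizes are not read as a trait of the 10 genes.

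**Figure D2:**
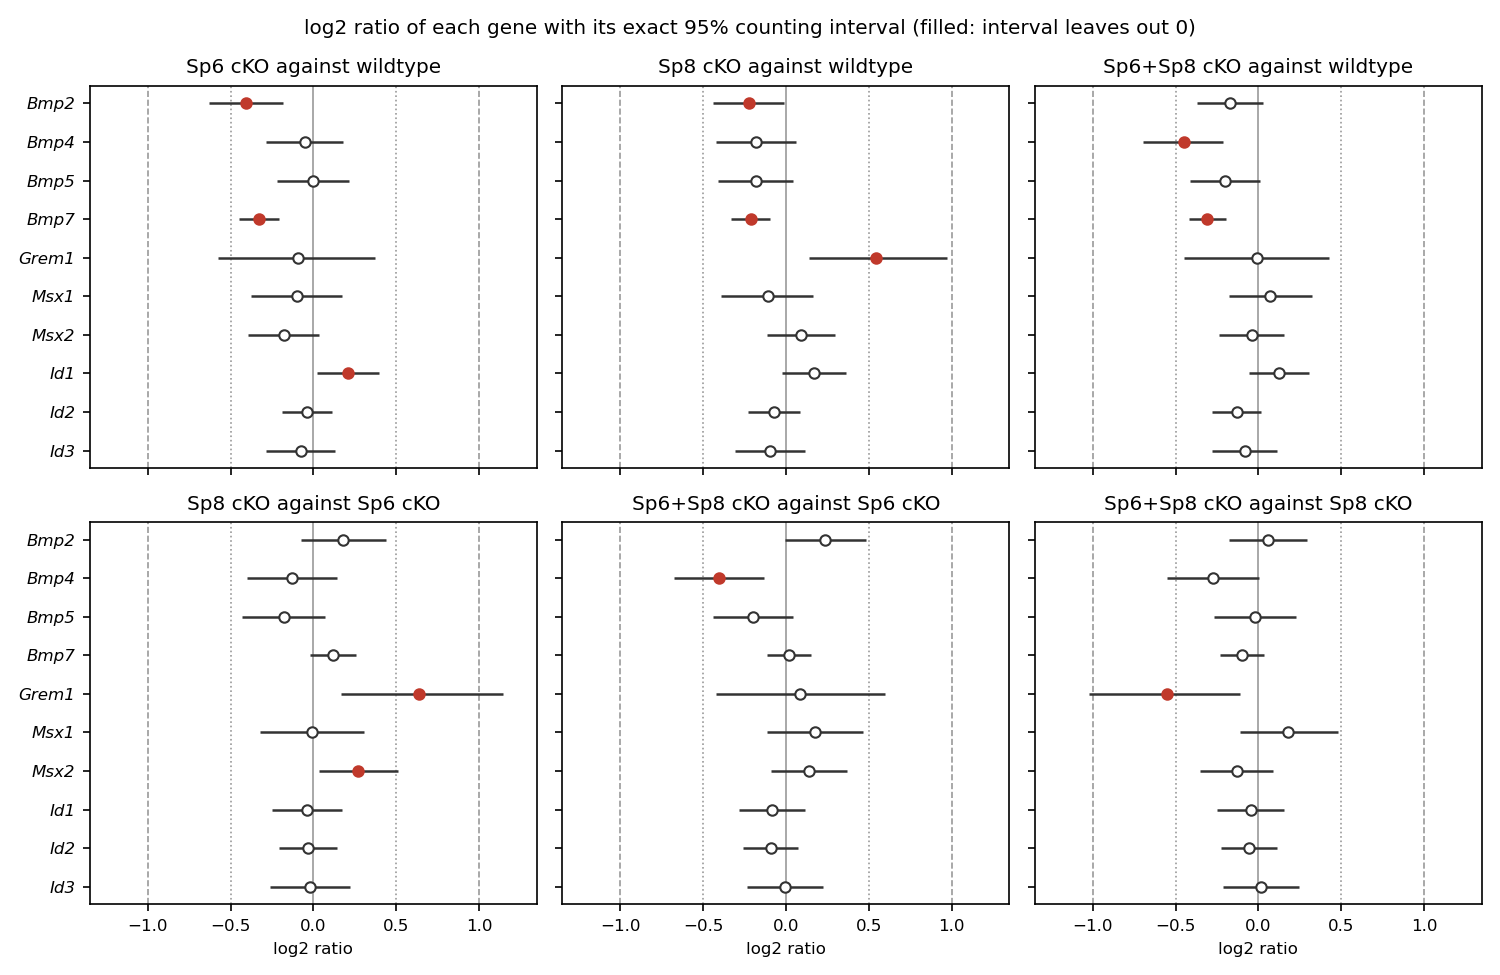
log2 ratio of each gene in the 6 pairwise comparisons, with the exact 95% counting interval as a line. Filled points mark intervals that leave out 0, dotted lines mark 0.5 and dashed lines mark 1 in either direction. Every point lies inside the dashed lines, and only Grem1, at 0.54, 0.64 and -0.55, lies beyond a dotted line.

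Ratios of 2 genes within a library do not depend on how libraries were scaled, and 8 such ratios were taken among the ligands, Grem1, Msx and Id genes. Of 48 changes of these ratios between libraries, 11 had an interval that left out 0. Pairs of other genes were not taken, so no share over all genes stands beside this count. Bmp2 had 0.988 counts for each count of Bmp4 in the Sp6 cKO, 1.22 in the Sp8 cKO, 1.27 in wildtype and 1.54 in the double cKO. Between the 2 batch 1 libraries at the ends of this order the log2 change was 0.64 (95% interval 0.28 to 1.01), with wildtype between them. The Bmp7 to Bmp4 ratio had the same ends, 3.42 in Sp6 cKO and 4.59 in the double cKO, a log2 change of 0.42 (0.12 to 0.73), and shares its Bmp4 counts with the first ratio.

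Grem1 had 0.254 counts per count of Bmp4 in wildtype, 0.246 in the Sp6 cKO, 0.422 in the Sp8 cKO and 0.345 in the double cKO. Sp8 cKO exceeded wildtype by 0.73 on the log2 scale (0.25 to 1.22) in this ratio and by 0.78 (0.31 to 1.25) in the Grem1 to Bmp2 ratio. Both ratios share their Grem1 counts with each other and with the CPM values above, so they are not separate observations. Grem1 was highest relative to either ligand in the Sp8 cKO library, although the interval held 0 against the double cKO for Bmp4 (-0.83 to 0.25) and against the Sp6 cKO for Bmp2 (-0.09 to 1.03). The Id2 to Id1 ratio was 1.70 in wildtype and 1.44, 1.44 and 1.43 in Sp6 cKO, Sp8 cKO and the double cKO. Its log2 change from wildtype was -0.25 (-0.49 to -0.00), -0.24 (-0.49 to 0.01) and -0.26 (-0.49 to -0.02) in that order, so all 3 batch 1 libraries lay below wildtype and 1 interval held 0. For Msx2 to Msx1 the range was 1.55 to 1.92, and no pair of libraries differed beyond counting error.

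**Figure D3:**
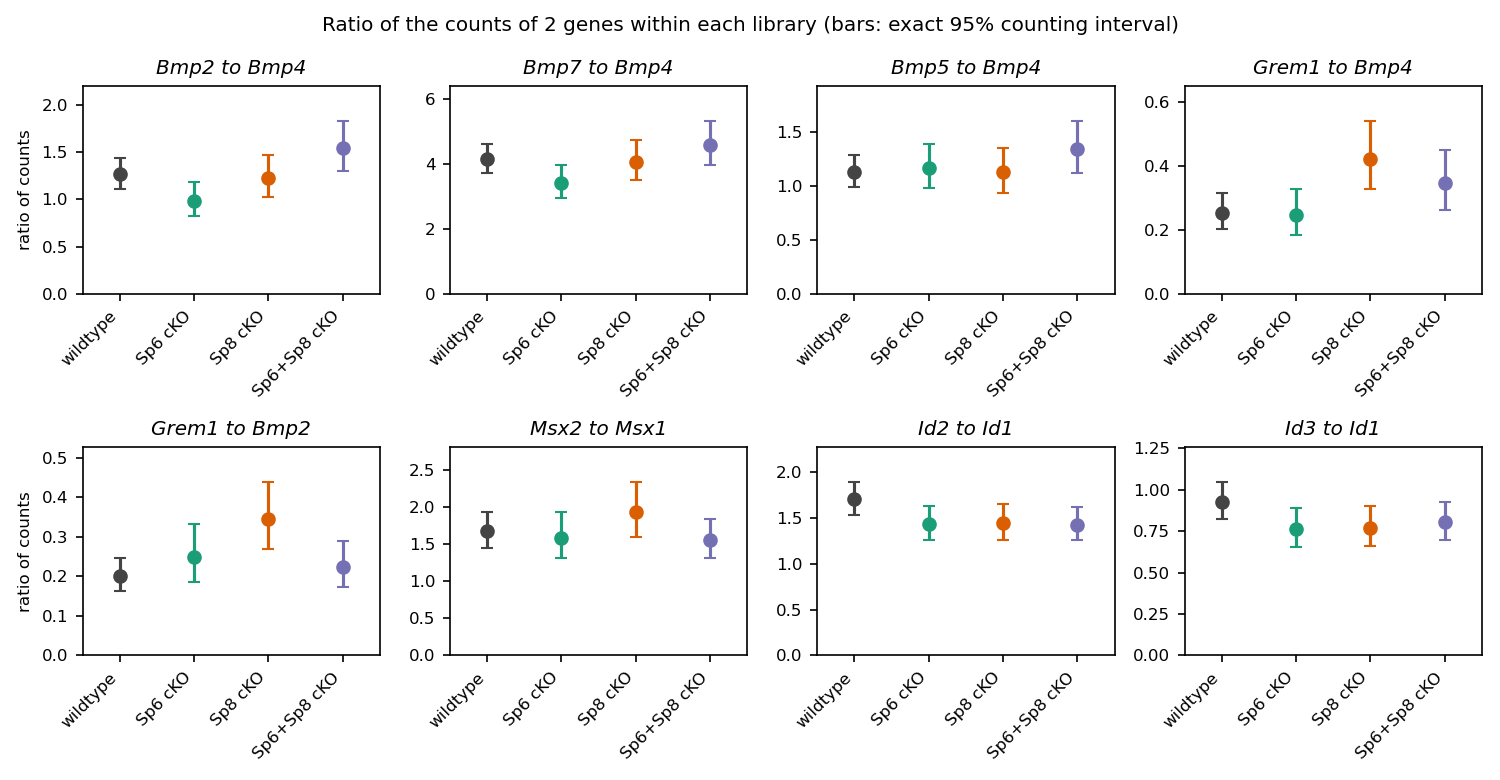
Ratio of the counts of 2 genes within each library, on axes that start at 0, with exact 95% counting intervals. Bmp2 to Bmp4 runs from 0.988 in Sp6 cKO to 1.54 in Sp6+Sp8 cKO, both Grem1 ratios are highest in Sp8 cKO at 0.422 and 0.345, and Id2 to Id1 is higher in wildtype at 1.70 than in the other libraries.

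The wider pathway was read from 7 lists of 71 genes, of which 59 to 62 reached a CPM of 1 in a comparison. Against wildtype, 2 of 61 genes (3.28%) passed the log2 size of 0.5 in Sp6 cKO, 1 higher and 1 lower, where 10.7% of all genes passed. In Sp8 cKO 0 of 60 passed, against 9.69% of all genes. In the double cKO 7 of 59 (11.9%) passed, all lower, against 16.9% of all genes. These shares of all genes hold both directions together, and no share of lower genes alone was taken. Within batch 1 the count was 3 of 62 (4.84%) for Sp8 cKO against Sp6 cKO, where 7.15% of all genes passed. For the double cKO it was 7 of 61 (11.5%) against Sp6 cKO, beside 11.8% of all genes, and 11 of 60 (18.3%) against Sp8 cKO, beside 13.6%. The lists' median log2 ratios together were 0.01, -0.02 and -0.07 against wildtype in Sp6 cKO, Sp8 cKO and the double cKO. The medians of all genes were -0.01, -0.01 and -0.02 in the same order.

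Among other ligands, Bmp8a was lower in the 2 libraries labelled with a deletion of Sp6. It stood at 11.6 CPM in wildtype, 5.58 CPM in Sp6 cKO, 10.4 CPM in Sp8 cKO and 4.81 CPM in the double cKO, from 253, 72, 131 and 74 counts. The Sp6 cKO and the double cKO libraries lay below wildtype 2.08-fold (log2 ratio -1.04, 95% interval -1.46 to -0.68) and 2.42-fold (-1.25, -1.67 to -0.90), and Sp8 cKO lay above Sp6 cKO within batch 1 at 0.88 (0.47 to 1.33). Bmp8a shares 11.2% of its 31-base stretches with its neighbour Bmp8b, which had 8 to 14 counts, and carries 9.24% on the opposite strand of Gm17244, so its counts are uncertain. Gdf10, the most abundant of these ligands per kb, was at 30.3 CPM in wildtype and 42.2, 41.2 and 35.0 CPM in the Sp6, Sp8 and double cKO. Bmp6 passed the smaller size in the double cKO against Sp6 cKO, at -0.51 (-0.96 to -0.09), and did not pass with libraries scaled by their totals (-0.47). Bmp15 passed in Sp8 cKO against Sp6 cKO with only 4 and 15 counts.

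Among receptors, Bmpr2, the type II BMP receptor and the most abundant of the 11 per kb, was at 662.6 CPM in wildtype and 723, 680 and 803 CPM in the Sp6, Sp8 and double cKO. None of 10 measured receptor and co-receptor genes passed the smaller size against wildtype in any cKO library, where 9.69% to 16.9% of all genes passed. Acvr2a, a type II receptor shared with activins, passed in the double cKO against Sp8 cKO at 0.50 (0.40 to 0.61), from 133 and 94.1 CPM.

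Of the extracellular inhibitors and modulators, Sost and Kcp were lower in the double cKO library. Sost, the osteocyte gene of sclerostin, was at 4.65 CPM in wildtype, 3.33 CPM in Sp6 cKO, 4.68 CPM in Sp8 cKO and 1.88 CPM in the double cKO (29 counts), a log2 ratio to wildtype of -1.25 (-1.95 to -0.69). Kcp, a chordin-like secreted protein gene, stood at 4.46, 4.11, 4.29 and 2.34 CPM in the same order, with a ratio to wildtype of -0.90 (-1.53 to -0.37) in the double cKO. Within batch 1 that library was also below Sp6 cKO and Sp8 cKO past the smaller size for either gene. The 7 osteoblast markers, the list closest to osteocytes, had a median log2 ratio in that library of -0.43 against wildtype (1 higher and 2 lower past 2-fold), -0.59 against the Sp6 cKO and -0.27 against the Sp8 cKO. Their sum was 358 CPM there and between 320 and 421 CPM in the other libraries. The part of these differences in the Sost value was not tested. Fst, the gene of the activin and BMP binding protein follistatin, was 1.53-fold higher in the double cKO than in Sp8 cKO, with a log2 interval of 0.39 to 0.84. Fstl1 was the most abundant of the list per kb and ranged from 159 to 190 CPM. Dand5 passed in 3 comparisons from 4 to 14 counts. Noggin, the classical BMP antagonist encoded by Nog, had 25 to 62 counts and did not pass in any comparison.

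Among the Smads, Smad6, an inhibitory Smad that is itself a BMP target, was at 23.2 CPM in wildtype, 18.1 CPM in Sp6 cKO, 21.3 CPM in Sp8 cKO and 14.8 CPM in the double cKO. Its log2 ratio in the double cKO was -0.65 (-0.89 to -0.43) against wildtype and -0.52 (-0.79 to -0.27) against Sp8 cKO, the latter at -0.49 and inside the rule under totals without the 20 most abundant genes. Smad7, Bambi and the receptor-activated Smad genes Smad1, Smad5 and Smad9 did not pass in any comparison, where 7.15% to 16.9% of all genes passed. Ski, the most abundant of the list per kb, ranged from 260 to 293 CPM. The direct targets thus had unlike values in the double cKO library, where Smad6 was lower and Id1, Id2 and Id3 lay at 0.12, -0.13 and -0.08 against wildtype. Smad6 is also strongly expressed in endothelium, whose 7 markers summed to 188 CPM in that library against 235 in wildtype. The part of that difference in the Smad6 value was not tested.

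Among other transcription factors, Tbx2, Hoxc13 and Atoh8 were lower in the double cKO than in wildtype. Tbx2, a T-box gene regulated by BMP in several tissues, was at 22.4 CPM in wildtype, 16.9 CPM in Sp6 cKO, 16.5 CPM in Sp8 cKO and 10.8 CPM in the double cKO. This was 2.08-fold below wildtype in the double cKO (log2 ratio -1.05, 95% interval -1.32 to -0.80), and within batch 1 that library lay at -0.64 (-0.95 to -0.35) against Sp6 cKO and -0.61 (-0.92 to -0.31) against Sp8 cKO. Tbx2 was lower in each cKO library than in wildtype, at -0.40 and -0.44 in Sp6 cKO and Sp8 cKO, both inside the smaller size rule. Hoxc13, a regulator of nail and hair keratin genes, stood at 66.1, 46.8, 57.6 and 39.7 CPM in wildtype, Sp6 cKO, Sp8 cKO and the double cKO. Foxn1, which acts in nail and hair differentiation, was at 162, 171, 174 and 118 CPM, with a ratio of -0.53 in the double cKO against Sp6 cKO (-0.62 to -0.44), which was -0.49 and inside the rule under library totals. Nail and hair keratins were lower in the same library, as given with Msx2, and their part in the Hoxc13 and Foxn1 values was not tested. Atoh8, a target of BMP signalling in endothelium and liver, had 37 counts in the double cKO and a ratio to wildtype of -0.69 (-1.32 to -0.15). Dlx3, the most abundant of the list per kb, ranged from 193 to 221 CPM. None of the 3 E protein genes, Tcf3, Tcf4 and Tcf12, passed in any comparison, where 7.15% to 16.9% of all genes passed. Tcf3 was the highest of these per kb of merged exon, at 11.4 CPM per kb, but the lowest per kb of longest transcript and in CPM.

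**Figure D4:**
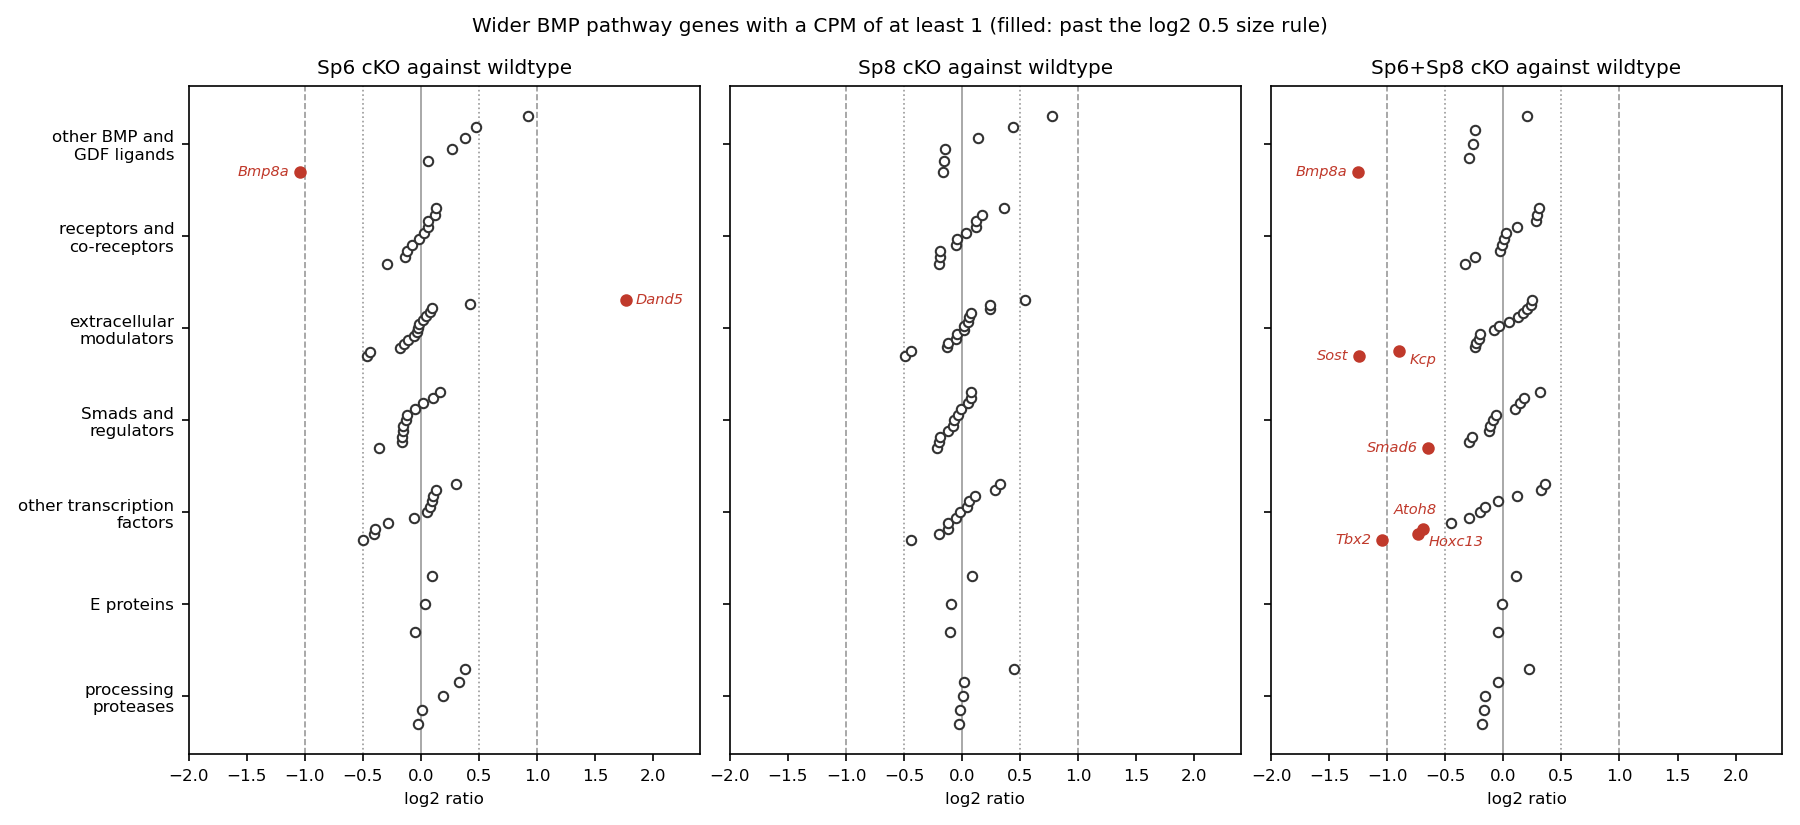
log2 ratio to wildtype of the wider BMP pathway genes with a CPM of at least 1 in a comparison, by list, in the 3 cKO libraries. Points within a list are ordered by value, dotted lines mark 0.5 and dashed lines mark 1. Filled and named points are past the smaller size rule: Bmp8a and Dand5 in Sp6 cKO, none in Sp8 cKO, and 7 genes, all lower, in the panel of Sp6+Sp8 cKO.

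Of the 5 processing genes measured, 1 passed in 1 comparison, the double cKO against Sp8 cKO, where 13.6% of all genes passed. Furin, the convertase that cleaves BMP precursors and the most abundant of its list per kb, ranged from 204 to 233 CPM. Tll1, a chordin-cleaving protease related to Bmp1, passed in the double cKO against Sp8 cKO at -0.61 (-1.09 to -0.16), from 4.74 and 7.30 CPM.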

How the data were processed

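RNA-seq was done on 4 libraries of regenerating digit tips, 1 per genotype. The authors deposited estimated counts for each gene, without scaling for depth. Per the submitters' processing notes, Salmon, STAR, featureCounts, deepTools, edgeR and Trim Galore 0.6.4 were used, with build GRCm38. The sources used here do not give their roles, the counting strand or the annotation release. A further 1 column, of no sample listed here, was left out.

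The counts were rounded to integers and scaled with edgeR 4.0.16 (TMM, R 4.3.3). A log2 ratio is the difference of log2 CPM with a prior count of 2, so it slightly understates the ratio of low genes. Fold values and their intervals are of CPM without the prior count. Intervals are exact Clopper-Pearson 95% intervals given the 2 counts' sum. PCR copies cannot be told from separate molecules here, so intervals may be too narrow. Size rules were log2 ratios of 1 and 0.5. The count of intervals that leave out 1 at any size was added after the values were seen. Gene positions and merged exon lengths came from GENCODE M21 on GRCm38, in which 98.8% of identifiers were found. The 31-base stretches shared with other genes were counted in its transcripts.

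The members and lists were chosen with earlier results of these data known. The genes named are the 10 members, Sp6 and Sp8, the most abundant gene per kb of each list, up to 3 genes of each list and comparison past 0.5, and the 3 nearest in pattern to the member of widest range. Nog, Chrd, Tcf4, Tcf12, Smad1, Smad5, Smad7, Smad9, Bambi and Bmp8b were named after their values were seen. Hjv was matched under its synonym Hfe2. The calls were checked on simulated counts in which the true ratios were known. These counts were drawn with counting error alone, the error that the intervals assume. That check therefore tells nothing of variation between animals, batches or PCR copies. Alternatives were DESeq2 1.42.0 size factors, library totals with and without the 20 most abundant genes, other prior counts and CPM minimums, unrounded counts, and transcript length.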

Additional observations from a re-analysis of the deposited data

How the results depend on the processing

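No paired analysis was possible because each group has 1 library, and for the same reason no library could be left out. The 480 recomputed log2 ratios of the 10 genes moved by at most 0.05 under other scalings, prior counts, CPM minimums or unrounded counts, and 0 calls at the log2 size of 0.5 changed. The counts of members past either size were the same under each of these settings. Which intervals leave out 1 at any size was not recomputed. Some bounds lay nearer to 0 than these shifts, as for Bmp2 in Sp6+Sp8 cKO against Sp6 cKO (-0.005 to 0.482). Those counts may therefore depend on the scaling. A CPM minimum decides which genes are tested and cannot move a log2 ratio. The 60 ratios under each CPM minimum were thus the same by design. Among wider pathway genes, scaling by library totals took the count past 0.5 in Sp6+Sp8 cKO against Sp6 cKO from 7 to 5, without Bmp6 (-0.47) and Foxn1 (-0.49). Totals without the 20 most abundant genes gave 5 there too, and took the count against Sp8 cKO from 11 to 9, without Hoxc13 (-0.50) and Smad6 (-0.49). Under the latter Tbx2 stood just inside 2-fold against wildtype. Under library totals Hoxc13 passed 0.5 in Sp6 cKO against wildtype and Chrd in Sp8 cKO against Sp6 cKO. Other prior counts, CPM minimums and unrounded counts were tried on the wider lists after seeing the data. With a CPM minimum of 5, fewer genes are tested, and the counts past 0.5 went from 2 to 1 in Sp6 cKO and from 7 to 4 in Sp6+Sp8 cKO against wildtype, from 3 to 1 in Sp8 cKO against Sp6 cKO and from 7 to 3 in Sp6+Sp8 cKO against Sp6 cKO. The counts past 2-fold went from 2 to 1 in Sp6 cKO against wildtype, from 2 to 0 in Sp8 cKO against Sp6 cKO, and in Sp6+Sp8 cKO from 1 to 0 against Sp6 cKO and from 2 to 1 against Sp8 cKO. The calls lost were of Dand5, Bmp15, Sost, Kcp and Atoh8. Among them were Sost past 2-fold in Sp6+Sp8 cKO against wildtype, and Sost, Kcp and Atoh8 past 0.5 against Sp8 cKO. With no CPM minimum, Msx3 passed both sizes in Sp6+Sp8 cKO against wildtype (-2.31), from 0 and 11 counts. In Sp6+Sp8 cKO against Sp6 cKO, Tll1 passed 0.5 at a prior count of 0.5 (-0.505), and Bmp6 did not pass at a prior count of 5 (-0.496). Per kb of the longest transcript in place of merged exons, mean levels were 8.49 CPM for Bmp4, 19.2 for Bmp7, 7.27 for Msx1, 9.61 for Msx2, 21.7 for Id2 and 18.2 for Id3. These differ because the transcripts are shorter than the merged exons. Grem1, at 60 to 108 counts, is the member whose difference is least precise, and variation between animals was not measured.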
